A study of Homo sapiens with 4 samples.

Results

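The genes described here are TNF and LTB, 2 ligands of the TNF superfamily, ADAM17, the protease that sheds TNF from the cell surface, the receptors TNFRSF1A and TNFRSF1B, the adaptors TRADD and TRAF2, the kinase RIPK1, and the ubiquitin ligases BIRC2 (cIAP1) and BIRC3 (cIAP2). They were taken by symbol from the deposited expression table and are 10 of its 26726 genes. HN12, a human HNSCC cell line, was studied as parental cells (WT) and as cells in which ATAD3A, which encodes a mitochondrial membrane ATPase, had been knocked out with CRISPR/Cas9. These knockout cells are called KO. Each group was cultured 2 times independently and sequenced, which gave 4 RNA libraries. The cells carried no other label of treatment. KO lines were grown from single cells, and the clone of origin of the KO libraries is not stated, so the effect of a clone and the effect of the knockout cannot be told apart.

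TNF is made as a membrane protein that ADAM17 cleaves to a soluble cytokine. When it binds TNFR1, the product of TNFRSF1A, TRADD, RIPK1, TRAF2 and the cIAP proteins assemble on the receptor (complex I), and the ubiquitin chains laid down there start NF-kB and MAPK signalling. When these chains are removed, RIPK1 can instead engage FADD and caspase-8 and start cell death. Squamous carcinoma cells can make TNF themselves, besides receiving it from immune cells, and BIRC3 is a well-known NF-kB target gene in many cell types.

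Of the 10 genes, 5 were lower in KO cells (TNF, LTB, ADAM17, RIPK1 and BIRC3), 2 were higher (TNFRSF1A and TRAF2) and 3 were not past the threshold (TNFRSF1B, TRADD and BIRC2). The threshold was an adjusted p under 0.05 in edgeR's quasi-likelihood (QL) test, with p-values adjusted by Benjamini-Hochberg over all 15104 genes tested. All 10 genes passed the filter on low counts. Over all genes tested, 39.5% were called, 20.4% higher and 19.1% lower, so that calls were frequent in this comparison whatever the gene. The KO and WT libraries did not overlap for 8 of the 10 genes, against 68.1% of all genes tested. Of these 8, 2 were higher and 6 lower in both KO libraries, against 34.1% and 34% of all genes tested. The median log2 fold change of the 10 genes was -0.30, against -0.0042 for all genes tested. TNF and LTB were both called and more than 2-fold lower, as were 2.74% of all genes tested, whereas 0 members were called and more than 2-fold higher, against 3.4% of all genes tested.

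The libraries held 18943547 and 16805766 counts (KO replicates 1 and 2) and 15173766 and 13569971 counts (WT replicates 1 and 2), and levels below are the deposited RPKM values, which are scaled per length and library. The targeted gene ATAD3A was at 14.2 and 11.2 RPKM in KO libraries and at 45.5 and 41.5 RPKM in WT libraries (log2 fold change -1.70, standard error 0.091, adjusted p = 1.58e-17, edgeR QL test), so the libraries followed their labels. Of 8 squamous epithelial markers, all were present, 6 were higher and 2 lower in KO cells, and their summed level was 2401 and 2305 RPKM in KO against 984 and 1042 RPKM in WT libraries. KRT5 (log2 fold change 2.63), KRT14 (2.20) and KRT6A (2.76) rose, whereas TP63 (-0.28) and DSG3 (-1.12) fell. Of 7 immune markers, 5 were in the table, with summed levels of 1.79 and 2.94 RPKM in KO and 2.91 and 3.38 RPKM in WT libraries. Among them CD68 had 3 counts or fewer in every library, PTPRC had between 1 and 9 counts, CD14 was at 1.09 and 1.96 RPKM in KO and 1.47 and 1.91 RPKM in WT libraries and not called (log2 fold change -0.09, adjusted p = 0.878), and CSF1R was lower in KO cells (log2 fold change -0.81, adjusted p = 0.0336). Endothelial and fibroblast markers, with 6 of 8 in the table, summed to at most 2.96 RPKM in every library. Only 3 of them passed the filter and were tested, and none of these was called. They were VWF (log2 fold change -0.05), COL1A1 (-0.05) and PDGFRB (-1.30, adjusted p = 0.0764, edgeR QL test). CD3E, LYZ, PECAM1 and DCN were not analysed here. The part of these marker shifts in the results on the TNF genes was not tested, and in bulk RNA fewer cells of a type and less RNA per cell cannot be told apart.

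To show the DNA in front of the genes that differed most, the 250 bases before the RefSeq start are printed for TNF, LTB and BIRC3, the 3 members with the largest fall in KO cells, and for BIRC2, the close paralog of BIRC3 that was not called. The sequences are from the RefSeq promoter table on GRCh38.p14, which held 9 of the 10 genes (all but TRADD), and are written 5′ to 3′ on the gene's strand. The RefSeq starts can differ from the GENCODE release 29 starts used below. By GENCODE, LTB reaches 31582522, BIRC3 begins at 102317450 and BIRC2 at 102347211, each inside its window. The windows of ADAM17 and TRAF2 lie wholly within these genes by GENCODE. Capitals mark matches, on either strand, to the NF-kB consensus, TGANNTCA, TGANTCA or TATAAA. The NF-kB consensus was taken as GGGRNNYYCC, where R is A or G, Y is C or T and N is any base.
TNF (chr6:31575315-31575564, plus strand): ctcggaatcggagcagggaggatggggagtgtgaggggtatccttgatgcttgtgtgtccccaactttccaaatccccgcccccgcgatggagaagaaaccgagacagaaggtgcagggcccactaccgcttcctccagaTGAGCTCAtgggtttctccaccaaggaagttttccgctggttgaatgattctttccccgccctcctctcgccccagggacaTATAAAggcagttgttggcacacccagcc
LTB (chr6:31582426-31582675, minus strand): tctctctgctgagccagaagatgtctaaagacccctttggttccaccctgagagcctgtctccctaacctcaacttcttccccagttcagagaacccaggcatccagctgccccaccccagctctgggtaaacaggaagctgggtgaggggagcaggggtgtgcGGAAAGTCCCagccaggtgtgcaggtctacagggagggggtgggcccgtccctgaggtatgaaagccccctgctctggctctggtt
BIRC3 (chr11:102317234-102317483, plus strand): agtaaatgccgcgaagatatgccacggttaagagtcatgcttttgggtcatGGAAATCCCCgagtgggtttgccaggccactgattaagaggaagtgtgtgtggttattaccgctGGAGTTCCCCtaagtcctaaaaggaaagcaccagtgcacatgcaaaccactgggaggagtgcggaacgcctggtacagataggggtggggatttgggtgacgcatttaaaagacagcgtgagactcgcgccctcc
BIRC2 (chr11:102346964-102347213, plus strand): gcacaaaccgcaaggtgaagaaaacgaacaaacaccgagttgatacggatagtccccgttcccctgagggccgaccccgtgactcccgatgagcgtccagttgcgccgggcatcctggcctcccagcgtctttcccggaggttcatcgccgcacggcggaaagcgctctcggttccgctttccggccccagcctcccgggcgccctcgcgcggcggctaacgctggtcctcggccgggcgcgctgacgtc

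In the window of TNF, the capitals are TGAGCTCA, a match to TGANNTCA from 110 to 103 bases upstream, and a TATAAA from 29 to 24 bases upstream. The LTB window held 1 NF-kB consensus, GGGACTTTCC on the opposite strand, from 86 to 77 bases upstream of the RefSeq start. By GENCODE this stretch lies inside the gene. The BIRC3 window held 2, both on the opposite strand, GGGGATTTCC from 199 to 190 and GGGGAACTCC from 135 to 126 bases upstream. In BIRC2, whose level was not past the threshold, none of the 4 patterns occurred, and in TNF no exact match to this NF-kB pattern occurred in these 250 bases. The stretch gggtttctcc, just downstream of TGAGCTCA in the TNF window, misses the pattern by a single letter, T where A or G is required. Looser forms of the site were not searched for. Of the other members with an entry, ADAM17 held 1 NF-kB consensus (GGGAGGCTCC), RIPK1 held a TATAAA, and TNFRSF1A, TNFRSF1B and TRAF2 held none. Over 27305 windows of the same length, the NF-kB consensus occurred in 9.57%, TGANNTCA in 10.4%, TATAAA in 11.1% and TGANTCA in 6.6%. These are matches of letters and carry no measurement of binding.

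TNF, the founding cytokine of its family, was the lowest of the 10 genes relative to WT. Its level was 0.882 and 0.639 RPKM in KO replicates 1 and 2 and 5.19 and 5.89 RPKM in WT replicates 1 and 2, from 28 and 18 against 132 and 134 counts. Both KO libraries lay far below both WT libraries. TNF was 6.85-fold lower in KO cells (log2 fold change -2.78, standard error 0.29, 95% confidence interval -3.37 to -2.19, adjusted p = 7.29e-10, edgeR QL test). The direction and the call held in all 16 alternative analyses, in which the log2 fold change lay between -3.03 and -1.89. The low counts in KO libraries set the width of the interval, which is the widest among the called members.

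LTB, which encodes lymphotoxin beta, the membrane anchor of the ligand of LTBR, lies next to TNF on chromosome 6. Its level was 8.90 and 7.33 RPKM in KO libraries and 17.8 and 17.6 RPKM in WT libraries. The groups did not overlap, and the WT pair was nearly level. LTB was 2.07-fold lower in KO cells (log2 fold change -1.05, standard error 0.143, adjusted p = 1.87e-07, edgeR QL test), and it was called in all 16 alternatives, with values between -1.44 and -0.91. LTA, the gene of lymphotoxin alpha, had 7 and 7 counts in KO and 8 and 18 counts in WT libraries and did not pass the filter, so the third ligand gene of the cluster was not tested. The ratio of LTB to TNF in RPKM was 10.1 and 11.5 in KO libraries and 3.42 and 2.99 in WT libraries. This ratio was higher in both KO libraries than in either WT library, but an exact two-sided permutation test of 2 libraries against 2 cannot give a p below 0.333, and it was not tested.

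ADAM17 was at 16.6 and 19.0 RPKM in KO libraries and at 23.7 and 24.5 RPKM in WT libraries. The groups did not overlap, and ADAM17 fell in KO cells (log2 fold change -0.37, standard error 0.075, adjusted p = 0.000126, edgeR QL test). After the correction for GC content and length the log2 fold change was -0.14 and the call was lost (adjusted p = 0.0965), as it was at the fold thresholds of the study's methods (fold 0.775, not under 0.75). Separately, 12.3% of the exon bases of ADAM17 are shared with IAH1, which lies on the opposite strand. IAH1 was higher in KO cells (log2 fold change 0.49, adjusted p = 6.61e-05, edgeR QL test), the direction opposite to that of ADAM17. The use of strand in counting is not given, so reads of these bases cannot be assigned with certainty. Their part in the ADAM17 value was not tested.

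**Figure D1:**
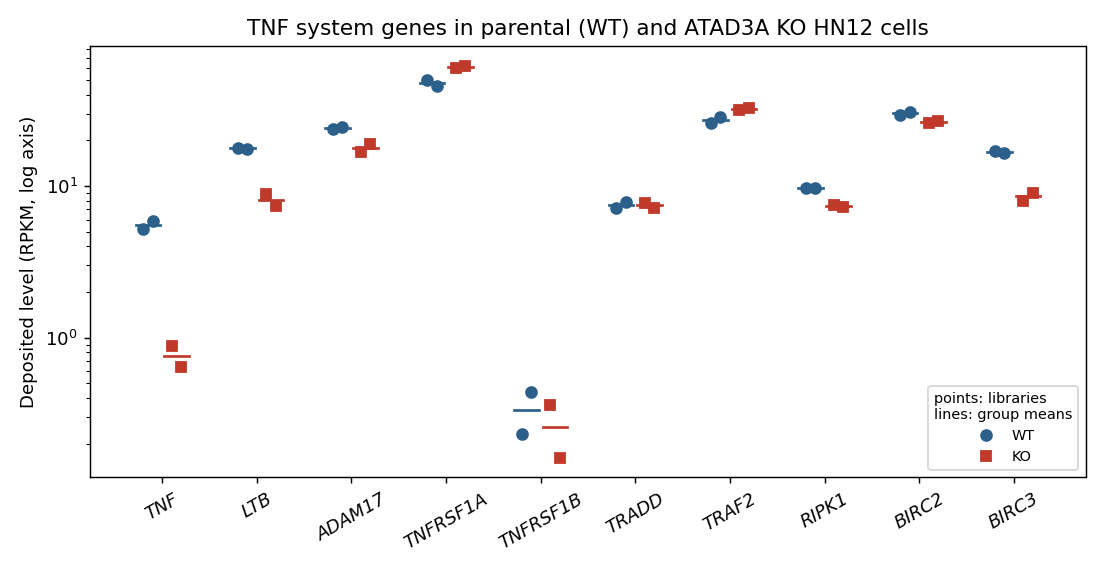
Deposited level (RPKM, log axis) of the 10 genes in the 2 WT libraries (circles) and the 2 KO libraries (squares), with lines at the group means. TNF lies at 5.19 and 5.89 RPKM in WT and below 1 RPKM in both KO libraries, whereas the libraries of TNFRSF1B and TRADD overlap between the groups.

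The receptor gene TNFRSF1A, which encodes the widely expressed TNFR1 with its death domain, was the most highly expressed of the 10 genes in both groups. Its level was 59.4 and 62.1 RPKM in KO libraries and 50.3 and 45.4 RPKM in WT libraries. Both KO libraries were above both WT libraries, and TNFRSF1A rose 1.33-fold (log2 fold change 0.41, standard error 0.068, adjusted p = 5.26e-06, edgeR QL test). The call held in all 16 alternatives, and the value was smallest after the GC and length correction (0.21, adjusted p = 0.0101). The ratio of TNFRSF1A to TNF in RPKM was 67.4 and 97.2 in KO libraries and 9.68 and 7.70 in WT libraries, so receptor RNA exceeded ligand RNA in every library and by more in KO libraries.

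TNFRSF1B encodes TNFR2, which lacks a death domain and is best known from immune and endothelial cells. It was the lowest gene of the set, at 0.358 and 0.162 RPKM in KO and 0.233 and 0.440 RPKM in WT libraries, from 25 and 10 against 13 and 22 counts. The groups overlapped, and the log2 fold change was -0.27 (95% confidence interval -1.44 to 0.89, adjusted p = 0.752). A change of more than 2-fold lower is inside this interval, so a difference was not detectable at this depth.

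TRADD, the adaptor that binds the death domain of TNFR1, was at 7.71 and 7.16 RPKM in KO and at 7.16 and 7.89 RPKM in WT libraries. The groups overlapped, and the log2 fold change was 0.05 (95% confidence interval -0.26 to 0.36, adjusted p = 0.816). The sign of this small value turned with the GC and length correction (-0.32, adjusted p = 0.0996). TRADD shares 4.91% of its exon bases with FBXL8 on the opposite strand, which was not called (log2 fold change 0.32, adjusted p = 0.609).

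TRAF2, the adaptor that brings the cIAP proteins to the receptor, was at 31.6 and 32.8 RPKM in KO libraries and at 25.9 and 28.5 RPKM in WT libraries. The groups did not overlap, and TRAF2 rose 1.24-fold (log2 fold change 0.31, standard error 0.079, adjusted p = 0.00155, edgeR QL test). The call was lost after the GC and length correction (0.05, adjusted p = 0.622), with this correction and a replicate block (adjusted p = 0.641), without WT replicate 1 (0.25, adjusted p = 0.0734) and at the fold thresholds of the study's methods (fold 1.244, just under the limit).

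RIPK1, the kinase at the branch between survival signalling and death, was at 7.44 and 7.27 RPKM in KO libraries and at 9.68 and 9.65 RPKM in WT libraries. The replicates of each group were close, and RIPK1 fell (log2 fold change -0.33, standard error 0.101, adjusted p = 0.00947, edgeR QL test). The direction held in all alternatives, but the call was lost with DESeq2 (adjusted p = 0.0797), without WT replicate 1 (-0.32, adjusted p = 0.0736), without WT replicate 2 (-0.33, adjusted p = 0.0517) and at the fold thresholds of the study's methods (fold 0.798, not under 0.75). An antisense gene covers 5.63% of its exon bases.

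The paralogs BIRC2 and BIRC3 lie side by side on chromosome 11, and both encode ubiquitin ligases that act on RIPK1 at the receptor. BIRC3 was at 8.004 and 9.05 RPKM in KO libraries and at 16.9 and 16.5 RPKM in WT libraries. The groups were far apart, and BIRC3 was 1.87-fold lower in KO cells (log2 fold change -0.90, standard error 0.084, adjusted p = 4.19e-11, edgeR QL test), with values between -0.98 and -0.63 and the call kept in all 16 alternatives.

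BIRC2 was at 26.1 and 26.7 RPKM in KO libraries and at 29.4 and 30.9 RPKM in WT libraries. The groups did not overlap, yet the log2 fold change was -0.12 (95% confidence interval -0.26 to 0.01, adjusted p = 0.141) and not called. It was called with scaling by library totals only (-0.19, adjusted p = 0.0179) and with limma on log2(RPKM + 1) (-0.19, adjusted p = 0.0412) and log2(RPKM + 0.1) (-0.19, adjusted p = 0.0413), and its sign turned after the GC and length correction (0.10, adjusted p = 0.197). The ratio of BIRC3 to BIRC2 in RPKM was 0.307 and 0.339 in KO and 0.575 and 0.535 in WT libraries, so the share of the cIAP2 gene was smaller in both KO libraries, with no test of the ratio itself. The transcripts compared for the paralogs shared 11 sequences of 50 nt, the read length, which is 0.273% of those of BIRC2 and 0.214% of those of BIRC3.

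**Figure D2:**
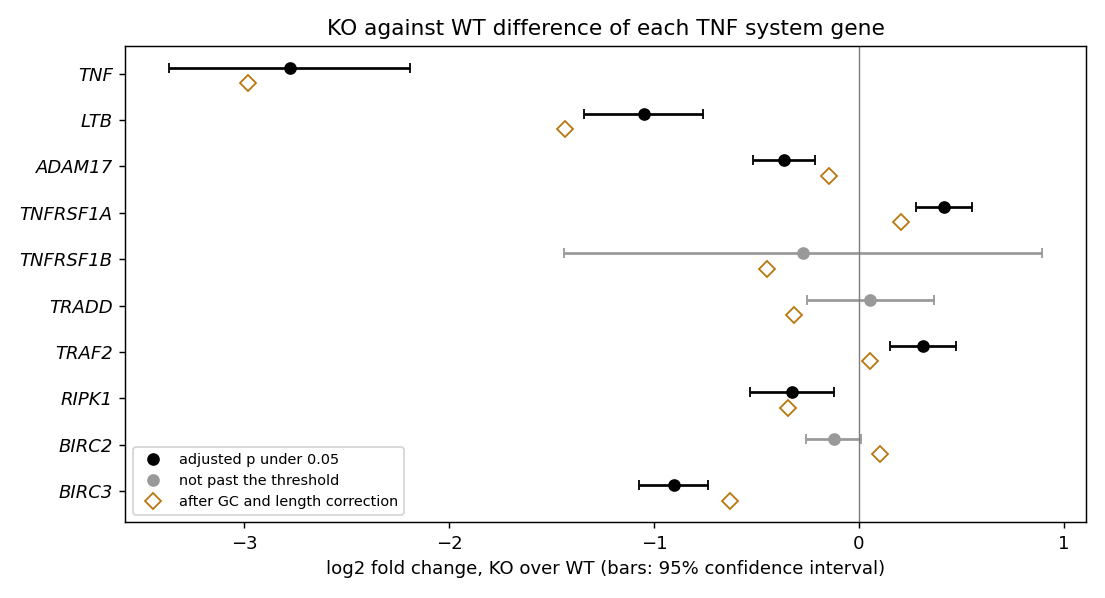
Log2 fold change of KO over WT for each of the 10 genes from edgeR, with bars for the 95% confidence interval, in black where the adjusted p was under 0.05 and in grey elsewhere, and with open diamonds for the value after correction for GC content and length. The diamonds of TNF (-2.98), LTB (-1.43) and BIRC3 (-0.63) stay below 0, whereas those of ADAM17 (-0.14) and TRAF2 (0.05) move towards 0.

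In WT cells the order of the levels (RPKM, mean ± SD, n = 2) was TNFRSF1A at 47.8 ± 3.44, BIRC2 at 30.2 ± 1.05, TRAF2 at 27.2 ± 1.88, ADAM17 at 24.1 ± 0.591, LTB at 17.7 ± 0.0927, BIRC3 at 16.7 ± 0.281, RIPK1 at 9.67 ± 0.0178, TRADD at 7.53 ± 0.515, TNF at 5.54 ± 0.496 and TNFRSF1B at 0.336 ± 0.147. No neighbours in this order overlapped in their libraries. In KO cells TNFRSF1A (60.8 ± 1.92) still led and TNF (0.760 ± 0.172) and TNFRSF1B (0.260 ± 0.139) were still last. TRAF2 (32.2 ± 0.838) stood above BIRC2 (26.4 ± 0.433) and ADAM17 (17.8 ± 1.70). BIRC3 (8.52 ± 0.736), LTB (8.12 ± 1.11), TRADD (7.44 ± 0.383) and RIPK1 (7.35 ± 0.120) fell into a narrow band in which neighbouring genes overlapped. The ratio of TRAF2 to RIPK1, 2 parts of the same receptor complex, was 4.25 and 4.51 in KO and 2.67 and 2.95 in WT libraries.

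The members were next set beside the genes that work with them, counted at the same threshold, which 20.4% of all genes tested passed as higher and 19.1% as lower. Among 16 further genes of complex I and the kinases below it, 3 rose, 3 fell and 10 were not called, with a median log2 fold change of -0.10. SHARPIN, a subunit of the linear ubiquitin ligase, rose (log2 fold change 0.57, adjusted p = 9.75e-06), while its partners RNF31 (0.18, adjusted p = 0.217) and RBCK1 (-0.11, adjusted p = 0.342) were not past the threshold. TAB2, which couples ubiquitin chains to the kinase TAK1, fell from 28.1 and 28.0 RPKM in WT to 18.5 and 19.3 RPKM in KO libraries (log2 fold change -0.50, adjusted p = 1.77e-07). After the GC and length correction the SHARPIN value was 0.15 and not called, and the TAB2 value was -0.29 and still called. After the same correction TAB3 was at -0.04 (adjusted p = 0.778), MAP3K14 at 0.23 (adjusted p = 0.207) and MAP3K7 at 0.0089 (adjusted p = 0.947), none of them called. IKBKG was at 0.48 and still called after it. The other 4 calls were smaller and depended on single libraries. IKBKG, the regulatory subunit of the IKK complex, had a log2 fold change of 0.45 (adjusted p = 0.036) and lost the call without KO replicate 1, KO replicate 2 or WT replicate 1 (adjusted p up to 0.308). MAP3K14, the kinase of the non-canonical pathway, had 0.38 (adjusted p = 0.0261) and lost it without KO replicate 1 or WT replicate 1 (up to 0.512). TAB3 had -0.31 (adjusted p = 0.00782) and lost it without KO replicate 1 or WT replicate 2 (up to 0.266). MAP3K7, the gene of TAK1, had -0.22 (adjusted p = 0.0329) and lost it without any of the 4 libraries (up to 0.271).

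In the death branch, RIPK3 was not analysed here, and of 6 genes tested 2 rose, 1 fell and 3 were not called, with a median of -0.17. FADD, the adaptor that recruits caspase-8, rose from 8.52 and 10.6 RPKM in WT to 13.3 and 14.9 RPKM in KO libraries (log2 fold change 0.63, adjusted p = 0.000188, edgeR QL test, and 0.38 with adjusted p = 0.022 after the GC and length correction). MLKL, the effector of necroptosis, had a log2 fold change of 0.32 (adjusted p = 0.0192), lost without KO replicate 1, WT replicate 1 or WT replicate 2 (adjusted p up to 0.175). CASP8 had -0.25 (adjusted p = 0.0222), lost without KO replicate 1, KO replicate 2 or WT replicate 1 (up to 0.247) and after the GC and length correction (-0.15, adjusted p = 0.192). After that correction MLKL was at 0.35 and still called. Of 6 deubiquitinases and other brakes on TNF signalling, 2 rose, 2 fell and 2 were not called, with a median of 0.12. TNFAIP3, the gene of the ubiquitin editing enzyme A20, rose from 30.7 and 32.1 RPKM in WT to 41.1 and 42.8 RPKM in KO libraries (log2 fold change 0.49, adjusted p = 4.04e-08). CYLD, a deubiquitinase that trims the chains on RIPK1, fell from 3.69 and 3.87 RPKM to 1.51 and 1.76 RPKM (log2 fold change -1.14, adjusted p = 2.8e-09). Thus the brakes did not move together. TNIP2, an A20 binding protein, rose (log2 fold change 0.50, adjusted p = 0.000153), and was not called after the GC and length correction. OTULIN had -0.18 (adjusted p = 0.0425), lost without any of the 4 libraries (up to 0.233) and after that correction (0.0091, adjusted p = 0.936).

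Among 4 genes that act with ADAM17 in shedding, 2 rose, 1 fell and 1 was not called, with a median of 0.19. TIMP3, the secreted inhibitor of ADAM17, was at 7.05 and 7.43 RPKM in KO libraries and at 2.20 and 1.86 RPKM in WT libraries. It rose well above the spread of the replicates (log2 fold change 1.90, standard error 0.136, adjusted p = 5.99e-14, edgeR QL test), and was still called after the GC and length correction (1.90). Its target protease ADAM17 went the other way in the main fit (-0.37). That ADAM17 call was lost after the GC and length correction and at the fold thresholds of the study's methods. RHBDF2 (iRhom2), which carries ADAM17 to the cell surface, rose (log2 fold change 0.38, adjusted p = 0.000212), and was not called after the GC and length correction. ADAM10, the related protease, had -0.25 (adjusted p = 0.00193), lost without KO replicate 1 (adjusted p = 0.0639) and after that correction. RHBDF1 had -0.01 (adjusted p = 0.959).

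**Figure D3:**
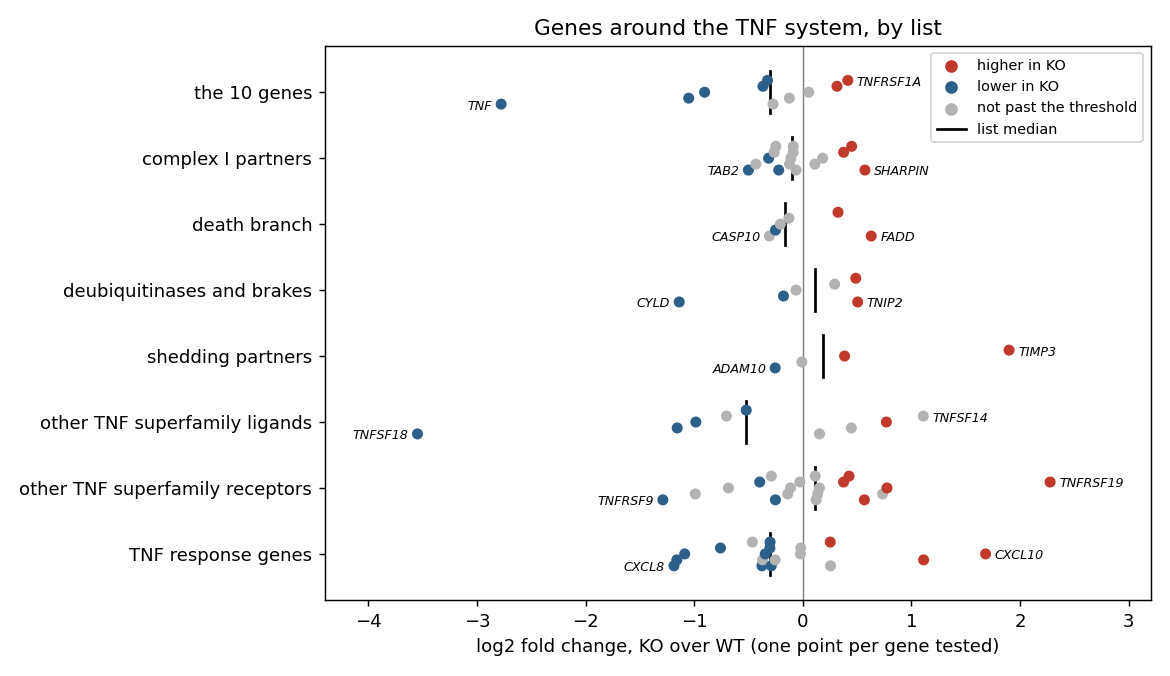
Log2 fold change of KO over WT for the tested genes of the 10 members and of 7 lists of genes around them, 1 point per gene, in red where higher, in blue where lower and in grey where not past the threshold, with a black line at each list's median. TNF (-2.78) and TNFSF18 (-3.55) stand furthest to the left, and the medians lie between -0.52 for the ligands and 0.19 for the shedding partners.

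Of 16 other ligands of the superfamily, 15 were in the table and 9 were tested. Of these, 4 fell, 1 rose and 4 were not called, with a median of -0.52. TNFSF18, the ligand of GITR, fell further than TNF, from 44.9 and 43.3 RPKM in WT to 3.76 and 3.41 RPKM in KO libraries (log2 fold change -3.55, standard error 0.111, adjusted p = 1.39e-24, edgeR QL test). CD70, the ligand of CD27, was at 10.2 and 9.60 RPKM in WT and at 4.80 and 4.76 RPKM in KO libraries (log2 fold change -0.98, adjusted p = 0.000424). TNFSF10, the gene of TRAIL, had -1.16 (adjusted p = 0.00181), lost without WT replicate 1 (adjusted p = 0.0696). TNFSF9, the ligand of 4-1BB, had -0.52 (adjusted p = 0.0151), lost without KO replicate 1 or WT replicate 2 (up to 0.114). TNFSF13, the gene of APRIL, had 0.77 (adjusted p = 0.0425), lost without KO replicate 1, KO replicate 2 or WT replicate 2 (up to 0.283) and after the GC and length correction (0.55, adjusted p = 0.170).

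Of 27 other receptors, 24 were in the table and 19 were tested. Of these, 5 rose, 3 fell and 11 were not called, with a median of 0.11. TNFRSF12A, the receptor of TWEAK, was the highest of them, at 129 and 128 RPKM in KO and 76.2 and 81.5 RPKM in WT libraries (log2 fold change 0.77, adjusted p = 6.77e-13). LTBR, the receptor of the ligand that contains LTB, rose from 52.7 and 52.1 RPKM to 67.8 and 66.3 RPKM (log2 fold change 0.43, adjusted p = 9.25e-07). Thus LTB was lower and LTBR higher in KO cells. For TNF, the receptor gene TNFRSF1A was higher and TNFRSF1B was not called (-0.27), and TNFSF9 (-0.52) and its receptor gene TNFRSF9 (-1.29) were both lower. LTBR (0.43) and TNFRSF1A (0.41) lie 46.3 kb apart on chromosome 12, so their rises may not be separate observations. This was not tested. SCNN1A, the tested gene between them, was lower (-0.53). After the GC and length correction, LTBR was at 0.26 and TNFRSF12A at 0.41, both still called. TNFRSF19 rose from 0.318 and 0.231 RPKM to 1.28 and 1.28 RPKM (log2 fold change 2.28, adjusted p = 1.91e-06), TNFRSF25 had 0.57 (adjusted p = 0.000713) and RELT 0.38 (adjusted p = 0.000719). TNFRSF9, the gene of 4-1BB, fell (log2 fold change -1.29, adjusted p = 2.53e-05). FAS had -0.40 (adjusted p = 0.0126), lost without WT replicate 1 (adjusted p = 0.193) and after the GC and length correction (-0.24, adjusted p = 0.144), and TNFRSF10D had -0.25 (adjusted p = 0.0335), lost without KO replicate 1, WT replicate 1 or WT replicate 2 (up to 0.269).

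Of 20 genes known to respond to TNF through NF-kB, VCAM1 and CXCL1 were not analysed here. This list leaves out genes counted elsewhere in the report. Among those are TNFAIP3 of the brakes, which was higher (log2 fold change 0.49), and the member BIRC3, which was lower (-0.90). Of the 18 tested, 9 fell, 3 rose and 6 were not called, with a median of -0.30, against 19.1% of all genes tested that were lower and 20.4% that were higher. At the thresholds of the study's methods, 5 of the 18 were lower, against 1847 of all 15104 genes. IL6 (fold 2.16) and CXCL10 (fold 3.21) were higher at these thresholds, against 2565 of all genes. CXCL8, the gene of the neutrophil chemokine IL-8, fell from 39.0 and 41.1 RPKM in WT to 17.3 and 16.2 RPKM in KO libraries (log2 fold change -1.19, adjusted p = 6.02e-13). ICAM1, an adhesion molecule for leukocytes, fell from 42.8 and 40.0 RPKM to 23.3 and 23.3 RPKM (log2 fold change -0.76, adjusted p = 2.97e-11). LCN2, which binds bacterial siderophores, fell from 17.6 and 17.6 RPKM to 8.09 and 7.67 RPKM (log2 fold change -1.09, adjusted p = 4.93e-07). The NF-kB inhibitor genes NFKBIA (-0.30) and NFKBIE (-0.35), the subunit gene NFKB2 (-0.29), TNFAIP2 (-0.30) and IER3 (-0.38) also fell, and these 5 were named after their values were seen. The list did not move as a whole, since IL6 rose from 2.63 and 2.90 RPKM to 5.88 and 5.49 RPKM (log2 fold change 1.11, adjusted p = 0.000111). CCL20 had -1.16 (adjusted p = 0.00985), lost without KO replicate 2 or WT replicate 2 (up to 0.151). CXCL10 had 1.68 (adjusted p = 0.0349), lost without any of the 4 libraries (up to 0.285), and IRF1 had 0.25 (adjusted p = 0.0146), lost without KO replicate 1 or WT replicate 2 (up to 0.156).

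To see whether the differences were shared with the genes around them, each member was set beside the 10 nearest tested genes on each side, with members left out. Of 160 such neighbours, 40 were higher and 22 lower, with a median of 0.01. Of all genes tested, 20.4% were higher and 19.1% lower, and each count of neighbours below is to be read beside these shares. TNF lies on chromosome 6 from 31575567 to 31578336 on the plus strand and LTB from 31580525 to 31582522 on the minus strand (GRCh38, GENCODE release 29). Of their 19 neighbours, which span 528 kb around TNF, 2 were higher and 3 lower, with a median of -0.11. The called genes nearest to TNF were DDX39B (-0.23, adjusted p = 0.0178), MICB (-0.52, adjusted p = 0.000257) and PRRC2A (-0.24, adjusted p = 0.000309). These called neighbours changed less than TNF and LTB. Among the neighbours that were not called, HCG27 (-1.19, adjusted p = 0.0672) and ABHD16A (1.26, adjusted p = 0.187) had values as large as that of LTB, from few counts, and they were named after their values were seen.

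BIRC3 lies on chromosome 11 from 102317450 to 102339403 and BIRC2 from 102347211 to 102378670, both on the plus strand. Of 19 neighbours of BIRC3, 5 were higher and 3 lower, with a median of -0.12. The called genes nearest to BIRC3 were KIAA1377 (-0.62, adjusted p = 0.00255) and ARHGAP42 (0.35, adjusted p = 0.000612) on one side and TMEM123 (-0.26, adjusted p = 0.000103) and MMP7 (2.51, adjusted p = 0.00164) on the other. The matrix metalloproteinase genes MMP10 (2.38), MMP1 (1.43) and MMP3 (2.60), named after their values were seen, were also higher, whereas MMP13 of the same cluster was not called (-0.26, adjusted p = 0.606). Of the nearest called neighbours, TMEM123, 78.9 kb away, and KIAA1377, 402 kb away on the other side, were lower like BIRC3. The 4 higher metalloproteinase genes lay between 203 and 518 kb away. YAP1 (-0.05), 207 kb away, and the member BIRC2 (-0.12), 29.8 kb away, were not called. Thus the direction did not follow the distance from BIRC3. The 20 neighbours of TRAF2 on chromosome 9 held 11 that were higher and 0 that were lower by the same test, with a median of 0.28, close to the value of TRAF2 itself (0.31). These values are from the main fit. After the GC and length correction TRAF2 was at 0.05 and not called, and its neighbours were not counted separately. RIPK1 had 2 higher and 3 lower among its 20 neighbours (median -0.12). TNFRSF1A had 6 higher, LTBR among them, and 4 lower among its 20 neighbours (median 0.085).

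**Figure D4:**
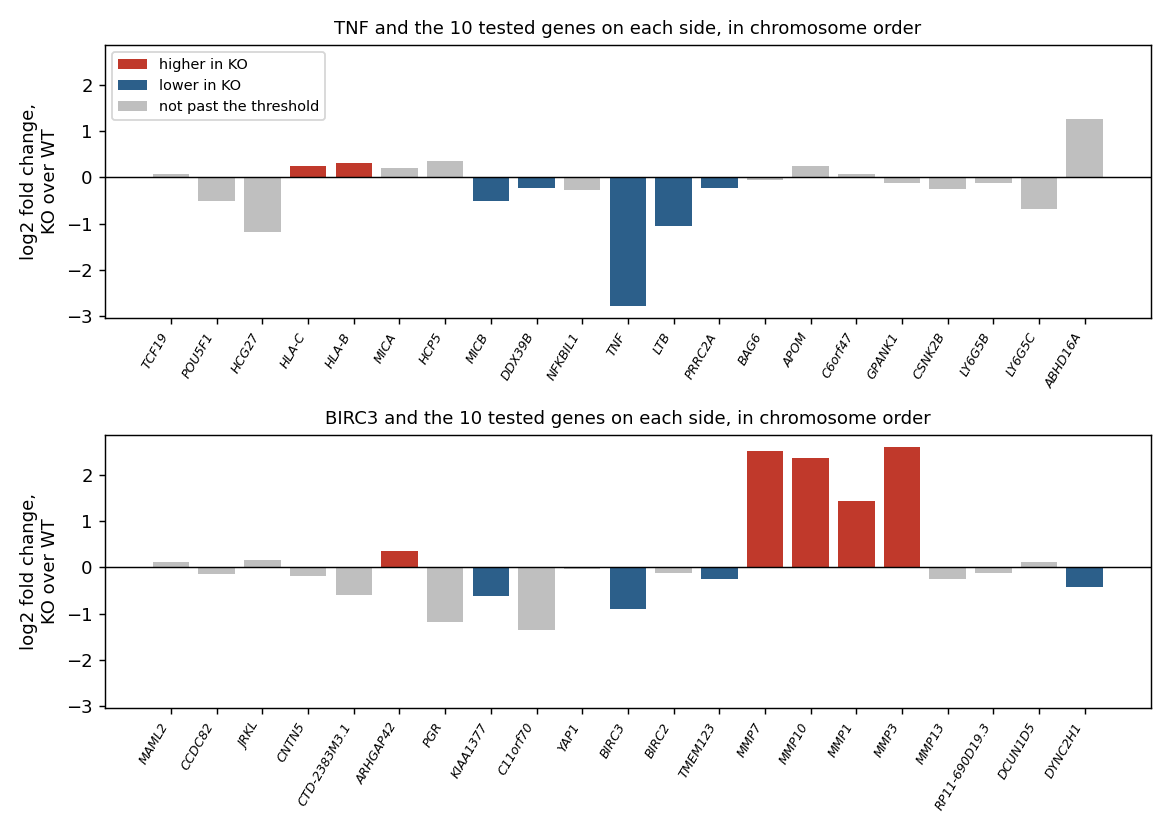
Log2 fold change of KO over WT for TNF (upper panel) and BIRC3 (lower panel) and the 10 tested genes on each side in chromosome order, in red where higher, in blue where lower and in grey where not past the threshold. TNF (-2.78) and LTB (-1.05) stand well below the called neighbours DDX39B (-0.23) and PRRC2A (-0.24), and in the lower panel BIRC3 (-0.90), TMEM123 (-0.26) and KIAA1377 (-0.62) are lower, whereas MMP7, MMP10, MMP1 and MMP3 are higher (1.43 to 2.60) and MMP13 (-0.26) is not past the threshold.

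The genes whose pattern over the 4 libraries was most like that of TNF were found by the root mean square distance in log2 CPM after centring each gene, among the 12537 genes whose average log2 CPM was 1 or more. They were RP11-255B23.4 (distance 0.0805), EGLN3 (0.127), NOTCH3 (0.172), LYPD5 (0.179) and AMOT (0.181). Their log2 fold changes were -2.68, -2.93, -2.66, -2.40 and -2.72 in the same order. With 4 libraries in 2 groups this likeness is mainly that of a similar fold between the groups.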

How the data were processed

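The 10 genes and the gene lists around them were chosen with earlier results of these data known. Per the methods and the labels, total RNA was extracted with TRIzol from HN12 cells and sequenced as 50-nt reads. The submitters' processing notes name hg19, CASAVA, STAR 2.5, HTSeq, edgeR 3.16.5 and DESeq2, and the methods name DESeq with calls at p under 0.05 and a fold over 1.25 or under 0.75. Annotation release, use of strand and read filters are not given in the sources used here. The authors deposited 2 tables, raw gene counts and RPKM values, the latter made by the authors from these counts, with 1 length per gene (the implied length varied by at most 1.82e-05% between libraries).

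Here, counts of 15104 genes that passed filterByExpr were compared between KO and WT with edgeR 4.0.16 in R 4.3.3 (TMM, factors 0.975 to 1.03, glmQLFit and glmQLFTest, no replicate term), adjusted by the Benjamini-Hochberg method. The biological coefficient of variation was 5.88%, and p-values measure only the spread between these libraries. No pair was 1 library deposited again (chi-square per degree of freedom 3.48 for KO and 2.87 for WT). A floor of 3 counts is 0.158 to 0.221 CPM, for counting error only. Scripts were tested on simulated data. Alternatives were edgeR's exact test, DESeq2 1.42.0, size factors of DESeq2 in edgeR, library totals, no filter, a minimum of 10 counts per library, a replicate block, limma 3.58.1 on log2(RPKM + 1) and log2(RPKM + 0.1), the study's thresholds, each library left out, and offsets from splines (4 degrees of freedom) of GC content and length, with GC content known for 97.2% of tested genes. Positions and exon overlaps come from GENCODE 29 (GRCh38) by gene identifier, a later build than the authors'. Named were all members, ATAD3A, of each list the 4 called genes with the largest change on each side and, where 5 or fewer were called, all of them, the 2 nearest called neighbours on each side, and the 5 genes most like TNF. A further marker gene of the plan is not reported here.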

Additional observations from a re-analysis of the deposited data

How the results depend on the processing

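TNF, LTB, BIRC3 and TNFRSF1A kept their direction and call in all 16 alternatives. Values under the alternatives were also counted for all members, ATAD3A and the called genes with the largest changes in the lists around the members. Of these values, 604 kept direction and call, 114 lost the call, 3 gained it and 14 turned sign. A gene that stayed uncalled in the same direction counts as kept. Other genes named in the report were not in this count. Examples are RELT, NFKBIA, the marker genes, genes named only as chromosome neighbours and the genes most like TNF. With library totals only, 2508 genes were higher and 3615 lower over all genes, against 3074 and 2891 with TMM, and the median moved to -0.074. DESeq2 called 2165 higher and 1881 lower. limma called 2140 higher and 2879 lower on log2(RPKM + 1), and 2149 and 2902 on log2(RPKM + 0.1). The thresholds of the study gave 2565 higher and 1847 lower. For genes with few counts, such as TNFRSF1B, depth limits what can be seen. Except where stated in the report, the cause of a change was not tested.

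With DESeq2, 1 complex I partner was higher and 1 lower, 1 death branch gene higher and 0 lower, 1 deubiquitinase or brake lower, 0 ligands higher, 1 receptor lower, 1 response gene higher and 14 neighbours lower. With library totals, 1 complex I partner was higher and 5 lower, 1 death branch gene higher and 2 lower, and 0 ligands higher, and TRADD was at -0.0154. With no filter, 0 death branch genes and 1 brake were lower. With limma on log2(RPKM + 1), 1 complex I partner, 1 death branch gene and 0 ligands were higher, 1 brake was lower and TRADD was at -0.0150. On log2(RPKM + 0.1), 1 complex I partner, 1 death branch gene and 0 ligands were higher and TRADD was at -0.0168. After the GC and length correction, 1 of the 10 members, 1 brake, 1 shedding partner, 0 ligands and 24 neighbours were higher and 0 death branch genes lower, and MAP3K7 (0.0089), OTULIN (0.0091), TRADD (-0.32) and BIRC2 (0.10) turned sign. With the thresholds of the study, 1 member was higher and 3 lower, and 1 complex I partner, 0 death branch genes, 1 brake, 0 shedding partners, 1 receptor and 5 response genes were lower.

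Replicate numbers are shared between the groups but the labels do not say that they mark pairs, and deviations of same-numbered libraries correlated at -0.0571 over 11224 genes. With the replicate block, 3010 genes were higher and 2810 lower over all genes, and 1 brake was lower. With the block and the GC and length correction, 1 member, 1 brake, 1 shedding partner and 0 ligands were higher and 0 death branch genes lower, and MAP3K7 (0.0092), OTULIN (0.0084), TRADD (-0.32) and BIRC2 (0.10) turned sign.

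Leaving out each library in turn assumes that the lone library varies like the other group. It gave 1 to 2 members higher and 4 to 5 lower, 1 to 3 complex I partners higher and 1 to 3 lower, 1 to 2 death branch genes higher and 0 to 1 lower, 2 to 3 brakes higher and 1 to 1 lower, 0 to 1 shedding partners lower, 0 to 1 ligands higher, 1 to 4 receptors lower, 1 to 2 response genes higher and 7 to 9 lower, and 32 to 40 neighbours higher and 14 to 22 lower. TNFRSF1B ranged from -0.97 to 0.24, at 0.19 without KO replicate 2 and 0.24 without WT replicate 2, and TRADD ranged from -0.0077 (without WT replicate 1) to 0.12.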
